A study of Mus musculus with 15 samples.

Results

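The core cardiac transcription factors are DNA-binding proteins that together set up and maintain the gene programme of the heart muscle cell. The 10 followed here are the zinc-finger factors Gata4 and Gata6, the homeodomain factor Nkx2-5, the MADS-box factors Mef2a, Mef2c, Mef2d and Srf, the T-box factors Tbx5 and Tbx20, and the basic helix-loop-helix factor Hand2. They were taken from the deposited count table by symbol, as 10 of its 23337 genes. All 10 had enough counts to be tested, among 11814 genes tested in all.

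RNA was measured in 15 libraries of cardiomyocytes purified by fluorescence-activated sorting, 5 for each of 3 adeno-associated virus (AAV) vectors. The vectors were AAV-GFP (the control), AAV-ATF4-2A-GFP and AAV-DDIT3-2A-GFP, called GFP, ATF4 and DDIT3 below. Every animal, controls included, was a Rosa-Cas9GFP mouse, which carries Cas9 and GFP at the Rosa locus, received its vector at P1 and gave its cells at 4 weeks of age. ATF4 is the transcription factor at the centre of the integrated stress response, and DDIT3 (CHOP) is a transcription factor of endoplasmic reticulum stress. The promoter that drives the vector genes is not given in the sources used here.

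In heart development GATA4, NKX2-5 and TBX5 bind enhancers together and activate genes of contraction and conduction, while HAND2 is needed for growth of the right ventricle and TBX20 for the adult myocyte programme. MEF2 proteins bind an A/T-rich site as dimers and are held in check by class II histone deacetylases. SRF binds the CArG box, works with the coactivator myocardin and controls genes of actin and the sarcomere, its own gene among them. Several of these factors are not particular to myocytes: Gata6, Mef2c, Tbx20, Hand2 and Srf are also transcribed in endothelial cells, fibroblasts or smooth muscle cells.

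The promoters of 3 genes on which the results turn are shown for the sites of the MADS-box factors themselves. They come from RefSeq windows of the GRCm38.p6 assembly (mm10), which hold 250 bases before and 50 bases after the transcription start. Capitals mark CArG boxes in Srf and a MEF2 site in Mef2a. Mef2b, a MEF2 family gene outside the 10 that is described with them, has neither in its window and no capitals. The Srf stretch is chr17:46556163-46556412 on the minus strand, the Mef2a stretch chr7:67372851-67373108 on the minus strand, and the Mef2b stretch chr8:70152511-70152760 on the plus strand.
Srf: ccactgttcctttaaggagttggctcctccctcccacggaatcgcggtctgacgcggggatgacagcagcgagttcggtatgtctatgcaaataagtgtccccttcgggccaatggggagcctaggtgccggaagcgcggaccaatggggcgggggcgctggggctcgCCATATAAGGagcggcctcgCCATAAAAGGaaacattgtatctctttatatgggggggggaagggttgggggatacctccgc
Mef2a: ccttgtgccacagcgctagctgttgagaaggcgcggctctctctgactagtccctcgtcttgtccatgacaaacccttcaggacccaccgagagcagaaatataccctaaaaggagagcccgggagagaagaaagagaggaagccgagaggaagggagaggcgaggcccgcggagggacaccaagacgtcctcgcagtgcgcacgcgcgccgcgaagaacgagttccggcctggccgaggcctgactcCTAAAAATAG
Mef2b: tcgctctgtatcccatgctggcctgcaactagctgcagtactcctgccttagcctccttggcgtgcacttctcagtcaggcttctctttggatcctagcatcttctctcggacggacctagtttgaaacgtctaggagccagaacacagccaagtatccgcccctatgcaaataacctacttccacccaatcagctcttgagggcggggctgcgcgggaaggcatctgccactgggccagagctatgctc

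Of the 10 factors, 7 had at least 1 window in the RefSeq table. CArG boxes stood in 1 of the 7, Srf, at positions -82 to -73 and -62 to -53 from the start, and in 1.63% of all 32851 windows. The MEF2 site stood in 1 of the 7, Mef2a, at -2 to 8, and in 1.86% of all windows. The ATF4 and DDIT3 composite motif TGATGNAA and the cyclic AMP response element TGACGTCA were in no window of these 7 genes, and in 3.97% and 1.79% of all windows. The NKX2-5 core AAGTG was found in Hand2, Mef2c and Srf (46.4% of all windows) and the T-box core AGGTGT in Mef2c (13.7%). Both strands were searched, and a match is a run of letters, not a measured site.

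Per kilobase, Gata4 was the most abundant of the 10 in the GFP group and Hand2 the least. CPM, read counts scaled to a common library size with TMM factors, were divided here by the deposited gene length in kilobases so that genes can be compared. Gata4 stood at 83.1 ± 7.68 CPM per kb (SD, n = 5) and Mef2a at 66.1 ± 2.88. A middle group followed, with Mef2d at 43.3 ± 5.49, Nkx2-5 at 38.3 ± 2.11 and Gata6 at 34.5 ± 6.76 CPM per kb. Below these were Srf at 21.9 ± 2.15, Tbx20 at 20.2 ± 8.07 and Mef2c at 14.5 ± 0.984 CPM per kb. Tbx5, at 9.22 ± 2.45, and Hand2, at 6.94 ± 2.32 CPM per kb, were the lowest. Along this order the 5 libraries of neighbouring genes did not overlap between Gata4 and Mef2a, Mef2a and Mef2d, Gata6 and Srf, and Mef2c and Tbx5 (lowest Mef2c 13.4, highest Tbx5 13.1), while every other pair of neighbours overlapped. The lowest count of any of the 10 in any library was 63, for Hand2 in ATF4 replicate 4, and the highest 2428, for Gata4 in DDIT3 replicate 3.

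**Figure D1:**
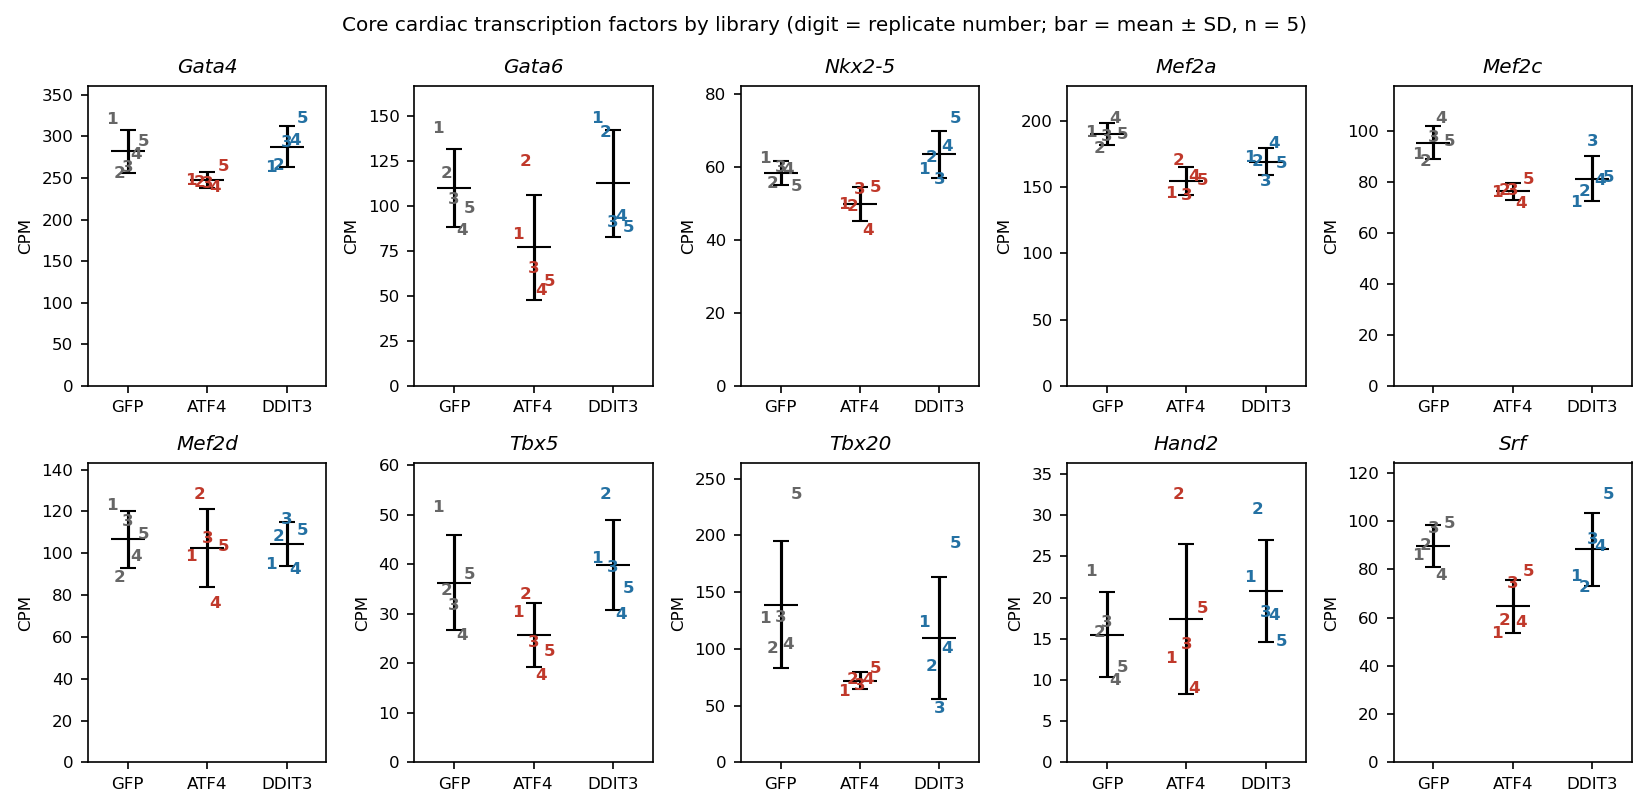
Level of each of the 10 factors in each of 15 libraries, in CPM on an axis from 0, by vector group. Each digit is 1 library at its level and gives its replicate number, and the bar is the group mean ± SD (n = 5). ATF4 libraries lie below all GFP libraries for Mef2a, Mef2c, Nkx2-5 and Tbx20, and the points of all 3 groups overlap for Mef2d and Hand2.

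Totals were 6217744 to 8317249 counts per library. On a principal component analysis of all tested genes the ATF4 libraries stood apart on the first component (54.4% of the variance), and ATF4 replicate 2 and DDIT3 replicate 2 scored highest on the second (11.4%). By Xist and 4 Y-linked genes 11 libraries were male. The 4 female ones included both of those second replicates, and the others were GFP replicates 4 and 5. GFP replicate 5 is also the only library whose label names SMART-Seq3 where the others name SMART-Seq2. The labels also name a SMART-Seq v4 kit, and it is not clear whether that library was made differently. The vector genes were as labelled: Atf4 stood at 71.1 ± 12.2 CPM in GFP and 400 ± 79.5 in ATF4, and Ddit3 at 15.6 ± 1.28 in GFP and 844 ± 180 in DDIT3 (SD, n = 5). Ddit3 was also higher in ATF4 than in GFP, at 29.5 ± 7.62 CPM (log2 fold change 0.91, edgeR adjusted p = 0.00061). Atf4 stood at 66.5 ± 22.9 CPM in DDIT3 and was not called against GFP.

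The first comparison asked how the factors stood when ATF4 was raised. Transcripts of Mef2a, Mef2c, Tbx20 and Srf were lower with ATF4 than with GFP, and none of the 10 was higher. In all, 4 of 10 passed the test in either direction, against 32.2% of all tested genes. Downward these were 4 of 10, against 15.6%, and upward 0 of 10, against 16.5%. The falls were modest except for Tbx20. The median log2 fold change of the 10 was -0.31, beside 0.02 over all tested genes, and 9 of the 10 were fitted below 0, as were 47.8% of all tested genes. Without any adjustment 8 of the 10 had p below 0.05 in edgeR, beside 42.6% of all tested genes, and DESeq2 called 5 lower and 0 higher. Across the 9 refits other than removal of a single library, DESeq2 among them, 2972 to 5097 of all genes were called, beside 3801 in the main fit. In bulk RNA, fewer cells of a type and less RNA per cell cannot be told apart.

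Among the MEF2 genes, Mef2a (chromosome 7, 67231163 to 67372858), the most abundant of the family here, stood at 191, 179, 188, 202 and 190 CPM in GFP replicates 1 to 5. The ATF4 replicates stood at 145, 170, 144, 158 and 155 CPM. Every ATF4 library was below every GFP library. The log2 fold change was -0.30 ± 0.08 (SE, 95% interval -0.47 to -0.13, edgeR adjusted p = 0.00859), and the call held in all 24 alternatives tried (adjusted p = 0.000358 to 0.0311).

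Mef2c (chromosome 13, 83504034 to 83667080) is the MEF2 gene that acts earliest in the developing heart tube. It stood at 90.8, 88.1, 97.3, 105 and 95.9 CPM in GFP and at 75.8, 76.7, 76.5, 71.7 and 81.1 CPM in ATF4. These groups did not overlap either, and the log2 fold change was -0.32 ± 0.09 (SE, edgeR adjusted p = 0.0112). The call was lost when the male libraries were tested alone (-0.27, edgeR adjusted p = 0.0886), the single exception in 24 alternatives.

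Mef2d (chromosome 3, 88142372 to 88172086), the family member tied to stress-dependent remodelling of the adult heart, showed no such separation. It stood at 107 ± 13.5 CPM in GFP and 103 ± 18.5 in ATF4 (SD, n = 5), with overlapping libraries and a log2 fold change of -0.06 (95% interval -0.32 to 0.21, edgeR adjusted p = 0.774).

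The fourth gene of the family, Mef2b, was nearly silent in controls. Its counts were 2, 0, 1, 0 and 1 in the GFP libraries and 0, 3, 2, 0 and 1 in DDIT3, but 254, 144, 214, 110 and 206 in ATF4. Summed over libraries these are 4, 6 and 928 counts. The ratio of ATF4 to GFP was 224 (95% exact counting interval 87.2 to 824). With 0 to 3 counts in each of the other 10 libraries, Mef2b passed the count filter only through the ATF4 group, so it had to differ, and its values are given as a description. Mef2b (chromosome 8, 70139711 to 70167488) overlaps the neighbouring gene Borcs8, listed in the table as 2310045N01Rik and looked up after the values were seen, and RefSeq annotates a transcript that reads through both. Counts of that neighbour were 73, 103, 68, 83 and 79 in GFP and 128, 118, 158, 111 and 121 in ATF4 (log2 fold change 0.60 ± 0.15, edgeR adjusted p = 0.00459). Reads of the Mef2b transcript and of the read-through one cannot be told apart in these counts.

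In CPM per kb, the 4 MEF2 genes summed to 124 ± 7.17 in GFP and 126 ± 10.8 in ATF4 (SD, n = 5), and to 124 ± 7.11 and 107 ± 9.76 without Mef2b. Mef2b took 14.8 ± 3.7% of the family's sum in ATF4 libraries and 0.0675 ± 0.0665% in GFP. The share of Mef2a was 53.4 ± 2.31% in GFP (50.9 to 55.8%) and 43.0 ± 4.54% in ATF4 (39.4 to 50.7%). The sum holds Mef2b, so the rise of Mef2b by itself lowers every other share in ATF4. The gap is therefore not a measure of Mef2a alone, whose own level stood at 66.1 ± 2.88 CPM per kb in GFP and 53.6 ± 3.75 in ATF4. No test was made of these shares, which depend on each other.

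**Figure D2:**
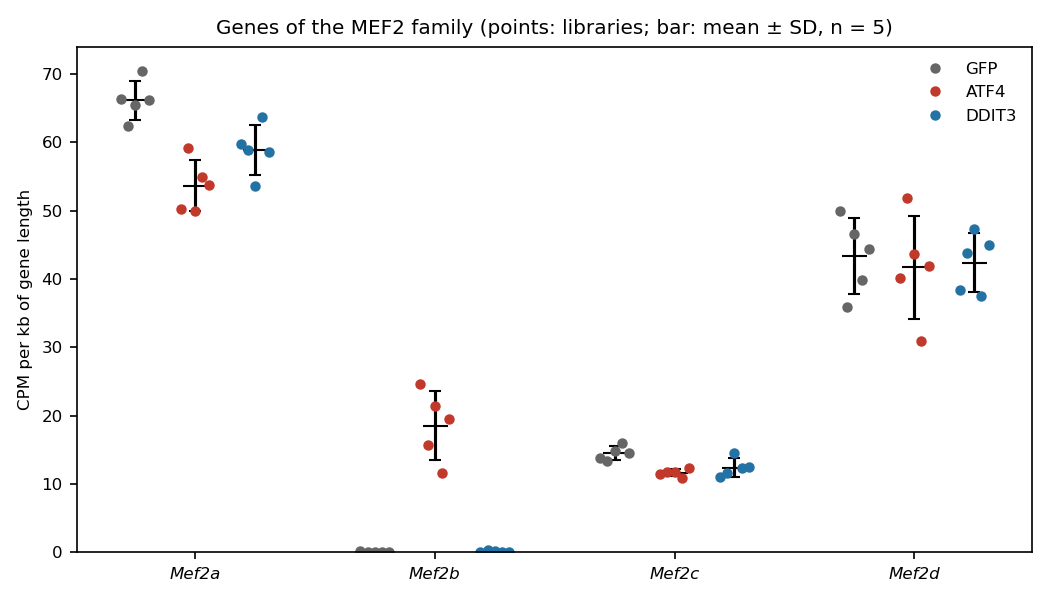
Level of the 4 MEF2 genes in CPM per kb of gene length by vector group, with 1 point per library and the group mean ± SD as a bar (n = 5). Mef2b lies between 11.6 and 24.6 CPM per kb in the 5 ATF4 libraries and near 0 in the others, and the ATF4 points of Mef2a and Mef2c lie below all GFP points.

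Srf (chromosome 17, 46548329 to 46556175), the MADS-box partner of myocardin, stood at 85.7, 89.8, 97.1, 77.3 and 98.9 CPM in GFP. The ATF4 libraries stood at 53.6, 58.9, 74, 57.9 and 79 CPM. The groups met at one point only, since ATF4 replicate 5 was above GFP replicate 4. The log2 fold change of Srf was -0.47 ± 0.13 (SE, 95% interval -0.75 to -0.19, edgeR adjusted p = 0.0111), and it was called lower in all 24 alternatives (adjusted p = 0.000307 to 0.0358).

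Of the T-box genes, Tbx20 (chromosome 9, 24718138 to 24774303), a T-box factor that keeps adult cardiomyocyte genes active, showed the deepest fitted fall of the 10. Its values were 127, 100, 128, 104 and 236 CPM in GFP and 62.5, 73, 67.8, 73.5 and 82.9 CPM in ATF4. No ATF4 library reached the lowest GFP library, while the highest GFP value stood far above the others. The log2 fold change was -0.95 ± 0.30 (SE, 95% interval -1.58 to -0.32, edgeR adjusted p = 0.0218). Without GFP replicate 5 it was -0.68 (edgeR adjusted p = 0.0725), without ATF4 replicate 1 it was -0.91 (0.0516), and in male libraries alone -0.73 (0.147), so that the call was lost in 3 of 24 alternatives.

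Tbx5 (chromosome 5, 119832668 to 119885219), a factor of atrial and conduction identity, stood at 51.6, 34.8, 31.7, 25.7 and 37.9 CPM in GFP. In ATF4 it stood at 30.3, 33.9, 24.2, 17.6 and 22.4 CPM, overlapping the control libraries. The log2 difference of -0.50 ± 0.20 (SE) missed the threshold (95% interval -0.93 to -0.08, edgeR adjusted p = 0.0649). It passed without ATF4 replicate 2 (-0.62, edgeR adjusted p = 0.0288), without GFP replicate 4 (-0.61, 0.0323), in male libraries alone (-0.74, 0.0117) and in DESeq2 (-0.51, 0.0499). Tbx5 also passed with the replicate number as a block (-0.51, edgeR adjusted p = 0.00351).

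The GATA factors and Nkx2-5 were not called in the main fit. Gata4 (chromosome 14, 63198922 to 63271692), which partners NKX2-5 and TBX5 at cardiac enhancers, stood at 320, 255, 263, 278 and 294 CPM in GFP and 247, 245, 243, 239 and 264 in ATF4. Its log2 difference was -0.19 ± 0.09 (SE, edgeR adjusted p = 0.117), and no alternative called it. Gata6 (chromosome 18, 11052064 to 11085635), which can stand in for GATA4 in part, stood at 143, 118, 104, 86.2 and 98.9 CPM in GFP and 84.5, 125, 65.6, 53.1 and 58.2 in ATF4.

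For Gata6 only ATF4 replicate 2 lay inside the control range, and ATF4 replicate 1 lay just below it. The log2 difference of Gata6 was -0.51 ± 0.22 (SE, 95% interval -0.98 to -0.05, edgeR adjusted p = 0.0849). Leaving out ATF4 replicate 2 gave -0.75 (edgeR adjusted p = 0.00641), and the male libraries alone gave -0.90 (0.00318). A fit with the replicate number as a block gave -0.56 (edgeR adjusted p = 0.00089).

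Nkx2-5 (chromosome 17, 26838664 to 26845009), the homeodomain factor of early cardiac commitment, stood at 62.2, 55.4, 60, 59.4 and 54.7 CPM in GFP and 49.6, 49.1, 53.9, 42.7 and 54.4 in ATF4. The groups just failed to overlap, yet the log2 difference of -0.22 ± 0.10 (SE) missed the threshold (edgeR adjusted p = 0.0851; 0.0599 to 0.191 over the 24 alternatives). With it, 4 of the 10 genes had ATF4 libraries wholly below GFP (Nkx2-5, Mef2a, Mef2c and Tbx20), against 9.79% of all tested genes.

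Hand2 (chromosome 8, 57320983 to 57324633) was the lowest and among the most scattered. It stood at 23.2, 15.8, 17, 10 and 11.5 CPM in GFP and 12.6, 32.5, 14.3, 8.94 and 18.7 in ATF4. The log2 difference was 0.16 ± 0.31 (SE, edgeR adjusted p = 0.721) and turned to -0.19 without ATF4 replicate 2. Its 95% interval, -0.48 to 0.81, spans a change of either sign. Hand2 overlaps Hand2os1, Mef2a overlaps Lysmd4, Mef2d overlaps 1700113A16Rik, Srf overlaps Gm26904 and Gata6 overlaps 1010001N08Rik, each on the opposite strand. The kit does not mark strand, so reads of those pairs cannot be told apart where they overlap. On the same strand, Mef2a overlaps Gm44667 and Gm44668, and Srf overlaps Mir6976.

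In the authors' deposited table for this comparison the same 4 genes had an adjusted p under the threshold: Mef2a (log2 fold change -0.32, 0.0018), Mef2c (-0.34, 0.00183), Tbx20 (-0.97, 6.92e-05) and Srf (-0.49, 0.00238). The authors' deposited table gave Tbx5 at 0.0524 and Gata6 at 0.0613.

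**Figure D3:**
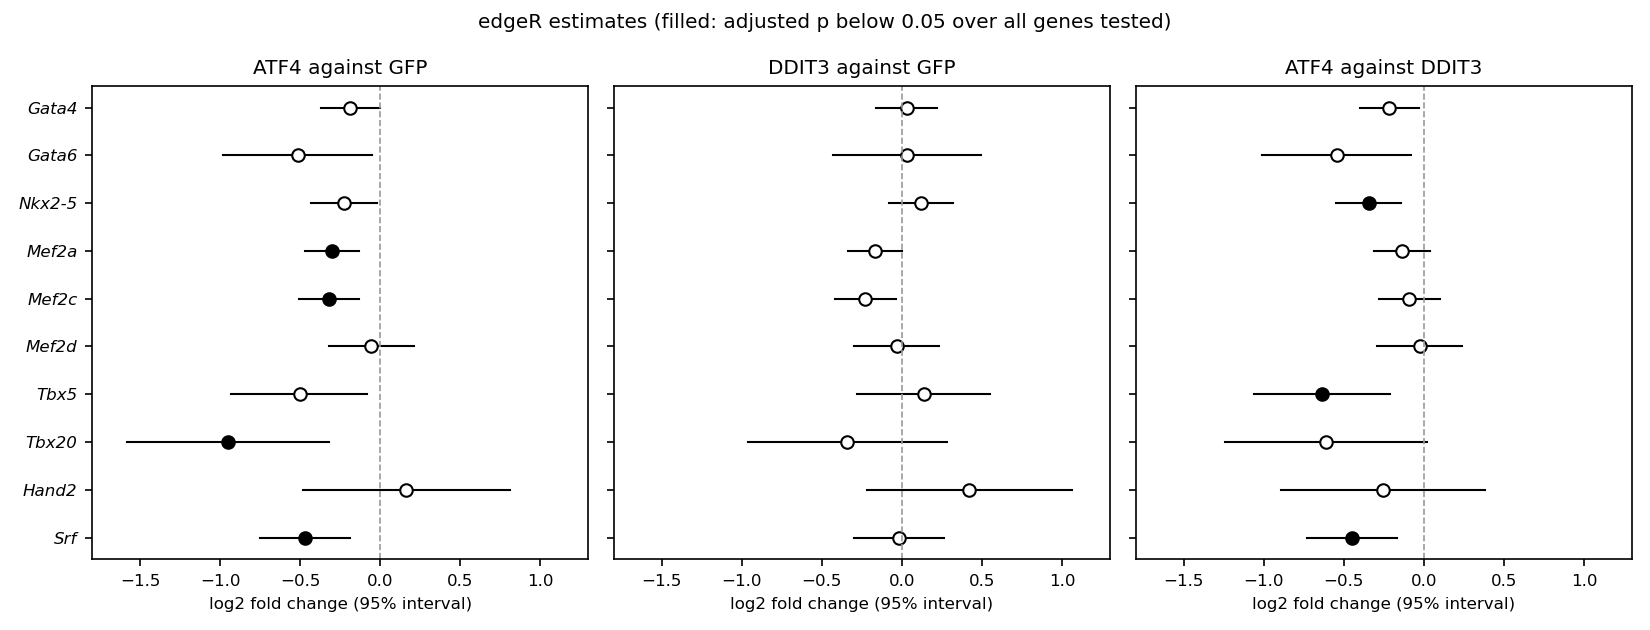
Log2 fold change of each of the 10 factors in the 3 comparisons, with the 95% interval from the edgeR fit as a bar; filled points passed an adjusted p of 0.05. In ATF4 against GFP the filled points are Mef2a, Mef2c, Tbx20 and Srf, in ATF4 against DDIT3 they are Nkx2-5, Tbx5 and Srf, and in DDIT3 against GFP there is none.

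The second comparison set DDIT3 against the same GFP libraries. No factor was called: 0 of 10, beside 0.863% of all tested genes (0.525% upward and 0.339% downward). Here edgeR gave 1 of the 10 (Mef2c) an unadjusted p under 0.05, beside 9.71% of all tested genes, DESeq2 called 0, and the authors' deposited table called 0. The median log2 difference of the 10 was 0.00, with 5 fitted below 0 (49.1% of all tested genes), and no gene had groups that did not overlap (2.86% of all tested genes did, 1.68% higher and 1.18% lower). The count stayed at 0 in all 24 alternatives.

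Mef2c came nearest, at 72.1, 76.4, 95.7, 80.5 and 81.9 CPM in DDIT3. Only DDIT3 replicate 3 stood inside the control range of 88.1 to 105 CPM. The log2 difference was -0.23 ± 0.09 (SE, 95% interval -0.42 to -0.04, edgeR adjusted p = 0.368). Mef2a stood at 172, 169, 154, 183 and 168 CPM, with only replicate 4 inside the control range, and differed by -0.17 ± 0.08 (SE, edgeR adjusted p = 0.527).

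The intervals were narrow for some factors and wide for others. For Gata4 the 95% interval of the log2 difference ran from -0.16 to 0.22, for Nkx2-5 from -0.08 to 0.32 and for Srf from -0.30 to 0.26. For Tbx20 it ran from -0.96 to 0.28, with DDIT3 libraries at 123, 84.9, 47.8, 100 and 193 CPM, and for Hand2 from -0.22 to 1.06. The intervals do not show that the levels were alike.

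The third comparison set the 2 stress factors against each other, ATF4 relative to DDIT3. Nkx2-5, Tbx5 and Srf were lower with ATF4, 3 of 10 against 16% of all tested genes, and 0 of 10 were higher, against 17.8%. All 10 were fitted below 0, beside 50% of all tested genes, with a median of -0.30 beside 0.00 over all tested genes. Only Nkx2-5 had groups that did not overlap, against 10.3% of all tested genes on the lower side.

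Nkx2-5 stood at 59.3, 62.6, 56.6, 65.6 and 73.4 CPM in DDIT3, above all 5 ATF4 libraries. Its log2 difference was -0.35 ± 0.10 (SE, edgeR adjusted p = 0.0102; 0.00283 to 0.0335 over 24 alternatives). Srf stood at 77.1, 72.3, 92.2, 89.3 and 111 CPM in DDIT3, and differed by -0.45 ± 0.13 (SE, edgeR adjusted p = 0.0138; 0.00053 to 0.0456 over 24 alternatives). Both calls held in all alternatives tried.

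Tbx5 stood at 41.2, 54.1, 39.3, 29.8 and 35.2 CPM in DDIT3, with DDIT3 replicate 4 inside the ATF4 range. It differed by -0.64 ± 0.20 (SE, edgeR adjusted p = 0.0204), and lost the call without ATF4 replicate 4 (-0.53, edgeR adjusted p = 0.0523) and without DDIT3 replicate 2 (-0.51, 0.0619). For Tbx20 the log2 difference of -0.61 ± 0.30 (SE) missed the threshold (edgeR adjusted p = 0.124) and passed it without DDIT3 replicate 3 (-0.80, 0.022). Mef2a and Mef2c, called against GFP, differed from DDIT3 by -0.13 ± 0.08 and -0.09 ± 0.09 (SE, edgeR adjusted p = 0.222 and 0.471).

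The GATA factors missed the threshold in this comparison and passed it under some alternatives. Gata4 stood at 263, 265, 293, 295 and 322 CPM in DDIT3 and differed by -0.22 ± 0.09 (SE, edgeR adjusted p = 0.0692). Gata6 stood at 149, 141, 91.1, 94.1 and 88 CPM in DDIT3 and differed by -0.54 ± 0.22 (SE, edgeR adjusted p = 0.0668). With the replicate number as a block, Gata4 (-0.21, edgeR adjusted p = 0.0276) and Gata6 (-0.57, 0.000724) both passed, which made 5 of 10. Over the 9 alternatives other than removal of a single library, 3525 to 5228 of all genes were called, beside 3997 in the main fit. Gata4 also passed in DESeq2 (-0.22, 0.0326) and with upper-quartile factors (-0.23, 0.0403). Gata6 also passed without ATF4 replicate 2 (-0.79, edgeR adjusted p = 0.0046), without both second replicates (-0.69, 0.012) and in male libraries alone (-0.69, 0.0092). In DDIT3 against GFP the block raised the genes called from 102 to 322, none of them among the 10.

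For some factors, libraries with the same replicate number stood high or low together across the vectors. Gata6 was highest in replicates 1 and 2 of all 3 groups. Tbx5 was lowest in replicate 4 of all 3 groups, and Tbx20 highest in replicate 5 of all 3. After each group's mean was taken away, the means of the 5 replicate numbers spanned 1.10 on the log2 scale for Hand2, 1.06 for Tbx20, 0.76 for Gata6 and 0.75 for Tbx5. They spanned 0.43 for Srf and 0.35 for Mef2d, and 0.13 to 0.20 for Nkx2-5, Mef2a, Mef2c and Gata4. No label says what a replicate number marks, and these spans are a description without a test.

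**Figure D4:**
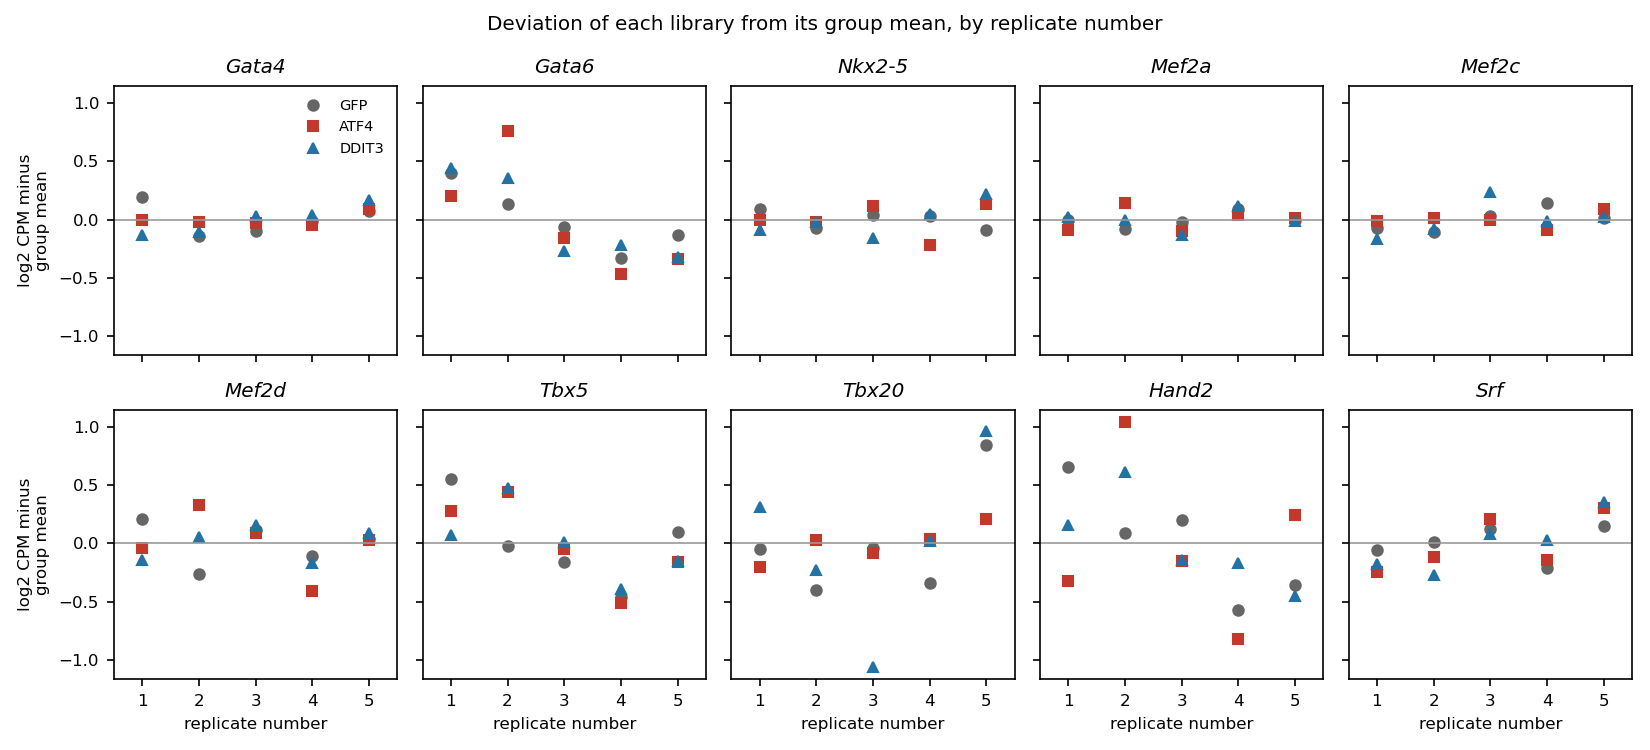
Deviation of each library from its own group's mean, in log2 CPM, by replicate number for each of the 10 factors, with 1 point per library and a shape for each vector group. Replicates 1 and 2 lie above the other replicates in every group for Gata6, and replicate 5 lies highest in every group for Tbx20.

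Ratios of related factors were compared within libraries. On the per-kilobase scale the geometric mean ratio of Gata4 to Gata6 was 2.44 in GFP, 3.17 in ATF4 and 2.46 in DDIT3. The ratio of Mef2a to Mef2c was 4.56, 4.61 and 4.77, that of Mef2a to Mef2d 1.53, 1.3 and 1.39, and that of Tbx5 to Tbx20 0.468, 0.611 and 0.688 in the same order. None of the 12 exact two-sided permutation tests of these ratios gave p below 0.05 (p = 0.135 to 0.937, adjusted 0.604 to 0.937, smallest possible 0.00794). By replicate number, Gata4 to Gata6 was higher in ATF4 than in DDIT3 in 5 of 5 pairs (exact sign-flip p = 0.0625, the smallest that 5 pairs can give). Unadjusted p passed for Gata4 to Gata6 without ATF4 replicate 2 (log2 difference 0.58, exact permutation p = 0.0397) and for Mef2a to Mef2d without ATF4 replicate 4 (-0.35, exact permutation p = 0.0159), each with ATF4 set against controls. With DDIT3 set against controls it passed for Mef2a to Mef2c without DDIT3 replicate 3 (0.16, exact permutation p = 0.0238). With 5 libraries a group, these tests do not show that the ratios were kept.

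For 3 of the called factors, the genes most like them over the 15 libraries were sought by the mean absolute difference between genes of centred log2 CPM. Nearest to Mef2a was Smpdl3a at 0.0651, then Large at 0.0791 and Ctdspl2 at 0.0813, where the mean deviation of Mef2a itself was 0.12. Nearest to Srf were Mtrf1l at 0.0965, Adck1 at 0.1 and Socs2 at 0.101, beside 0.236 for Srf. Nearest to Mef2c were Gprasp1 at 0.094, Krit1 at 0.0951 and Ppp6r1 at 0.098, beside 0.148 for Mef2c. These are descriptions of likeness over libraries that share depth scaling and groups.

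Among the cofactors of the 10, Myocd, Zfpm2, Hdac9 and Smarcd3 fell with ATF4 and Wwtr1 rose. Of 41 listed partners and regulators 39 were tested, of which 9 fell, 3 rose and 27 did not pass. Of all tested genes 15.6% fell and 16.5% rose. The median log2 difference was -0.08, beside 0.02 over all tested genes. Myocd, the coactivator of SRF, stood at 165, 136, 144, 143 and 266 CPM in GFP and 102, 122, 103, 93.5 and 118 in ATF4, without overlap (-0.67 ± 0.17, SE, edgeR adjusted p = 0.00538). GFP replicate 5 was thus the highest control library for Myocd as for Tbx20.

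Zfpm2, the GATA4 cofactor also called FOG2, stood at 51.6, 51.7, 46.6, 40.3 and 48.8 CPM in GFP and 32.4, 33.9, 33.2, 32.5 and 27.3 in ATF4 (-0.59 ± 0.11, SE, edgeR adjusted p = 0.000599). Hdac9, a class II deacetylase that represses MEF2 proteins, fell from 64.9 ± 10.9 to 33.9 ± 5.26 CPM (SD, n = 5; log2 fold change -0.94, edgeR adjusted p = 6.23e-05). Smarcd3, a chromatin remodelling subunit that acts with cardiac factors, fell from 95.1 ± 3.04 to 60.9 ± 9.38 CPM (-0.64, edgeR adjusted p = 0.000146). The LIM protein Fhl2 also fell (log2 fold change -1.17, edgeR adjusted p = 0.00454).

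Those that rose were Wwtr1, the Hippo pathway coactivator TAZ (0.76, edgeR adjusted p = 5.05e-05), Elk3, an ETS partner of SRF (0.84, 0.00413), and Ankrd1, a stress-induced nuclear and sarcomeric protein (0.93, 0.0391). With DDIT3 none of the 39 partners was called against GFP by edgeR or DESeq2 (2 at an unadjusted edgeR p under 0.05), though 1 was called lower without DDIT3 replicate 2. In male libraries alone 1 of 40 was called lower, as was 1 of 40 without the second replicates of both stress vectors.

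The listed family relatives of the 10 were mostly at low levels, with 21 of 34 tested. With ATF4 2 of the 21 were called higher, Mef2b and Tbx2, and 2 lower, Prrx1 and Irx4, shares below those of all tested genes (16.5% and 15.6%). Mef2b could enter the test only through its ATF4 libraries. The median was 0.20, and without the second replicates of both stress vectors 4 were called lower. Tbx2, a T-box repressor, stood at 3.7 ± 1.15 CPM in GFP and 10.1 ± 3.43 in ATF4 (SD, n = 5; log2 fold change 1.44, edgeR adjusted p = 0.000445). Irx4, a ventricular homeodomain factor, stood at 71.4 ± 13 and 49.8 ± 6.68 CPM (-0.52, 0.00855), and Prrx1, a paired-type homeobox gene of mesenchyme, at 49.9 ± 2.37 and 27.0 ± 3.65 CPM (-0.89, 6.4e-06). With DDIT3 none was called by edgeR or DESeq2 (2 at an unadjusted edgeR p under 0.05), and the replicate block called 1 lower.

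Of 53 listed target genes 52 were tested with ATF4, of which 23 fell, 3 rose and 26 did not pass, where 15.6% of all tested genes fell and 16.5% rose. The median was -0.46, beside 0.02 over all tested genes. Those that fell included Kcnd2, a voltage-gated potassium channel (55.5 ± 5.47 to 17.7 ± 3.57 CPM, SD, n = 5; log2 fold change -1.65, edgeR adjusted p = 5.33e-08), and Kcnj3, Pln and Ckm. Acta1, skeletal actin, Xirp2 and Nppa rose, the first by 2.45 (edgeR adjusted p = 2.58e-05). Acta1 is a classical CArG-box gene, and it rose where Srf fell. It is 1 gene among the 52 tested targets, of which 40 were fitted below 0. Any link of these changes to Srf was not tested. With DDIT3 edgeR called 0 of the 52 (9 at an unadjusted p under 0.05), while DESeq2 called 3 and the replicate block called 4, 1 higher and 3 lower.

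Of the cell type lists, the endothelial one stood higher and the ventricular one lower in ATF4 than in GFP. Each gave an exact permutation p of 0.00794 on mean log2 levels, adjusted 0.0278 over 21 tests. The ventricular list was also lower in DDIT3 than in GFP (-0.162, exact permutation adjusted p = 0.0477). Yet edgeR called 0 of its 8 markers there, beside 0.863% of all tested genes, and 5 of the 8 were fitted below 0. The median log2 difference of the 8 was -0.06 and the lowest -0.98. Kcne1 stood at 91.4 ± 20.7 CPM in GFP and 46.4 ± 12 in DDIT3 (SD, n = 5), while Myl2 stood at 3620 ± 747 and 3830 ± 385. Over all tested genes, 16.5% were called higher with ATF4 and 15.6% lower. Of 14 endothelial markers 12 were higher in ATF4 than in GFP, led by Robo4 (0.82, edgeR adjusted p = 0.000607), Eng and Tie1. Their summed level was 521 to 1040 CPM in GFP, 1180 to 1710 in ATF4 and 505 to 849 in DDIT3. Of 8 ventricular myocyte markers 6 were lower in ATF4 and 0 higher, with sums of 73100 to 104000, 56700 to 68500 and 77300 to 85300 CPM. Of 10 tested atrial markers 3 were lower (Kcnj3, Kcnj5 and Stard10) and 1 higher (Nppa), with a median log2 difference of -0.65. The mean log2 level of the atrial list was 3.87 ± 0.274 with GFP and 3.15 ± 0.436 with ATF4 (SD, n = 5, exact permutation p = 0.0317, adjusted 0.074 over 21 tests). Its summed CPM, to which Nppa adds most, went the other way, at 718 to 1250 in ATF4 and 364 to 667 in GFP. Of 10 tested pericyte and smooth muscle markers 5 were higher in ATF4, but 2 without ATF4 replicate 1, 2 without GFP replicate 5 and 1 in male libraries alone, and the sums overlapped (896 to 1390 CPM in GFP, 760 to 1450 in ATF4). Of 11 tested fibroblast markers 1 was higher and 1 lower, with sums of 398 to 882 and 450 to 1000 CPM. Leukocyte markers summed to 12 to 29.8 CPM in any library and 0 of 6 tested were called. The haemoglobin genes Hba-a1 and Hba-a2 were at 0 in every library. The part of these shifts in the falls of Mef2a, Mef2c, Tbx20 and Srf, and in the changes of their partners and targets, was not tested.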

How the data were processed

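RNA of sorted cardiomyocytes was measured in 15 libraries, 5 per vector group, with groups and replicate numbers from the sample titles. Per the labels, hearts were digested by Langendorff perfusion and libraries were made from polyA RNA (SMART-Seq v4 and Nextera XT kits). Per the submitters' processing notes, the authors used STAR, featureCounts, DESeq2 and DESeq with the mm10 build; the sources used here give neither versions nor roles. The deposited table holds whole-number counts per gene, and its deposited gene length column (another unit) was used for CPM per kb. The authors also deposited tables of log2 fold changes with p-values, used only where named. Nothing in the labels says that libraries came from separate animals, so p-values reflect only how far these samples spread, which may be technical.

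Counts were tested with edgeR 4.0.16 in R 4.3.3 (quasi-likelihood, robust, filterByExpr, TMM factors), fitting all 15 libraries together, with 12 residual degrees of freedom and a common biological coefficient of variation of 19.6%. The main fit held the group only, also where the numbers were taken to pair libraries, and the replicate number entered as a block only among the alternatives. Benjamini-Hochberg adjustment ran over all 11814 tested genes (11523 removed), with a threshold of 0.05. CPM errors are SD and log2 fold changes have SE. The scripts were checked on simulated counts. The ATF4 and DDIT3 comparisons share the GFP libraries. The 10 genes and all lists were chosen with earlier results of these data known. The text names the 10, Atf4 and Ddit3, the called partners, relatives and targets with the lowest p (up to 5 in each direction for ATF4 and 3 for DDIT3), the 3 genes most like each of 3 factors, and up to 3 markers of a list; provisional symbols were passed over, and 1 target gene is not reported here. Alternatives were other scaling factors, DESeq2 1.42.0, other count filters, a fit of the 2 groups compared, a replicate block, male libraries alone, and leaving out libraries.

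Pairing was checked by the correlation, across genes, of same-numbered libraries' deviations from their group means. It was 0.205 to 0.511 for DDIT3 and GFP and 0.135 to 0.497 for ATF4 and DDIT3, where the numbers were taken to pair the libraries. Even so, ATF4 replicate 1 did not match DDIT3 replicate 1 best (0.135). The correlation was 0.0783 to 0.386 for ATF4 and GFP, where the numbers were not taken to pair the libraries, since replicate 2 stood at 0.0783. The other same-numbered libraries still matched each other best there, so a pairing is not excluded. Depth limits the precision for Hand2 and Mef2b most, and counting intervals cover counting error only.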

Additional observations from a re-analysis of the deposited data

Results flagged for a closer look

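Among the factors, 2 values stood far from the other 4 libraries of their group, by the gap to the nearest library as a share of the group's range, over 42 groups examined (chance flags about 1 in 20). Tbx20 in GFP replicate 5 was 236 CPM, where the nearest GFP library stood at 128 and the lowest at 100. Tbx20 was also the highest in replicate 5 of the ATF4 and DDIT3 groups. The per-kilobase ratio of Mef2a to Mef2d in ATF4 replicate 4 was 1.78, where the nearest ATF4 library stood at 1.28 and the lowest at 1.14. In that library Mef2d stood at 76.1 CPM, the lowest of all 15.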

How the results depend on the processing

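Each comparison was refitted under 24 alternatives. The genes called in DDIT3 against GFP were 223 with DESeq2, 65 with at least 5 CPM in 5 libraries, 322 with the replicate block and 55 to 146 when libraries were left out. The block also called 5 factors in ATF4 against DDIT3, where replicate 1 did not match its same-numbered library best. In ATF4 against GFP the numbers were not taken to pair the libraries, though 4 of 5 matched best (correlations 0.379, 0.0783, 0.259, 0.386 and 0.24). There the block called 6 factors by adding Gata6 (-0.56) and Tbx5 (-0.51). It also called 6 partners higher and 13 lower, and 4 relatives higher and 3 lower. Over the 9 alternatives other than removal of a single library, 2972 to 5097 genes were called here, beside 3801 in the main fit. In ATF4 against DDIT3 they were 3525 to 5228, beside 3997. Leaving out libraries gave 3 to 6 factors in ATF4 against GFP, 2 to 4 in ATF4 against DDIT3 and 0 to 0 in DDIT3 against GFP.

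Signs turned for uncalled genes. In male libraries alone Hand2 was -0.45 in ATF4 against GFP, and in DDIT3 against GFP Gata6 was -0.21, Tbx5 -0.11, Hand2 -0.03 and Srf 0.03. The log2 ratios in ATF4 against GFP were then -0.04 for Mef2a to Mef2c and 0.00 for Tbx5 to Tbx20. With libraries left out, ATF4 against GFP ran from -0.19 to 0.35 for Hand2 and -0.15 to 0.03 for Mef2d. DDIT3 against GFP ran from -0.01 to 0.08 for Gata4, -0.10 to 0.14 for Gata6, -0.09 to 0.02 for Mef2d and -0.12 to 0.04 for Srf. ATF4 against DDIT3 ran from -0.11 to 0.07 for Mef2d. Of the log2 ratios, some turned sign and others kept it but passed or missed an unadjusted p of 0.05. They ran from 0.27 to 0.58 (Gata4 to Gata6), -0.02 to 0.04 (Mef2a to Mef2c) and -0.35 to -0.19 (Mef2a to Mef2d) in ATF4 against GFP. They ran from -0.10 to 0.16 (Gata4 to Gata6) and 0.02 to 0.16 (Mef2a to Mef2c) in DDIT3 against GFP, and from -0.45 to 0.09 (Tbx5 to Tbx20) in ATF4 against DDIT3. The cause was not tested.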
